A study of Rattus norvegicus with 8 samples.

Results

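The glucocorticoid receptor (GR, gene Nr3c1) and 7 genes that it is known to regulate, Fkbp5, Tsc22d3, Sgk1, Klf9, Klf15, Errfi1 and Zbtb16, were followed in rat liver. Members were the probe sets that the platform annotation gives exactly 1 of these 8 symbols, which found 13 of the 31042 probe sets on the array, for 7 of the 8 genes (of 14544 genes with a probe set of 1 symbol). No probe set carried the symbol Zbtb16 alone, so Zbtb16 was not analysed here, and no probe set with several symbols included a member. Of the 13 probe sets, 11 passed the filter on low values and were tested, at least 1 for each of the 7 genes.

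The arrays measured mRNA in whole liver of male Sprague-Dawley rats of 180 to 200 g, with 2 arrays in each of 4 groups. Dex+GW3965 livers came from rats that received GW3965 (50 mg/kg) by gavage over 3 days and an intramuscular injection of dexamethasone (1.5 mg/kg) on the third day. Dex livers came from rats given the gavage vehicle and the same dexamethasone injection, GW3965 livers from rats given GW3965 and a saline injection, and vehicle livers from rats given both vehicles, all taken 24 h after the injection. Dexamethasone is a synthetic GR ligand. GW3965 is a synthetic ligand that activates both liver X receptors (LXRs), the nuclear receptors for oxysterols. By the labels, arrays a and b of a group carry a single liver number, whereas the methods speak of 2 animals, so the p-values measure the spread between arrays, which may be technical. Values are deposited log2 signals, in which a difference of 1 is a 2-fold difference. Levels of different probe sets are not compared, since probes differ in brightness.

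The GR rests in the cytoplasm in a complex with Hsp90 and co-chaperones, and after binding hormone it enters the nucleus and binds DNA elements near its target genes. Several of those targets act back on the pathway. Fkbp5 encodes a co-chaperone that lowers the affinity of the receptor for hormone, and the receptor can lower its own mRNA. Other targets carry the response further: Tsc22d3 encodes the leucine zipper protein GILZ, which restrains NF-κB and AP-1, Klf9 and Klf15 encode zinc finger transcription factors, Sgk1 a kinase, and Errfi1 a cytoplasmic inhibitor of the EGF receptor. In liver the GR is known for raising gluconeogenesis and amino acid breakdown, and Klf15 takes part in both.

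RefSeq promoter windows were available for 12 transcription starts of the 7 genes on the array (build GRCr8). The 250 bases before each start were searched on both strands for the GR element, the motif arms AGAACA and TGTTCT with 3 bases between them, for the looser pair GNACA and TGTNC with 3 bases between them, and for either arm alone, which overlaps the full element. None of the 12 windows held any of these, against 0.012% of all 33469 windows of this length for the full element, 0.373% for the looser one and 17.5% for an arm alone. This says only that these letters are absent from these windows, and elements farther from the start were not searched. The windows differed in base composition: 76.0% of bases were G or C at Fkbp5 and 77.2% at Klf15, while the 3 starts of Sgk1 had 39.2%, 49.6% and 69.6%, outermost first, and the median over all windows was 51.2%. Windows of 3 genes are printed because their transcripts stood apart in the values that follow, Fkbp5 as the largest rise with dexamethasone, Sgk1 as a target that was lower, and Errfi1 as the gene with the smallest response to dexamethasone when GW3965 was present. Capitals mark CG dinucleotides, of which Fkbp5 (chr20:6543556-6543805, minus strand) had 41, the outermost start of Sgk1 (chr1:24807232-24807481, minus strand) 3, where its other starts had 10 and 22, and Errfi1 (chr5:166606591-166606840, plus strand) 32.
Fkbp5: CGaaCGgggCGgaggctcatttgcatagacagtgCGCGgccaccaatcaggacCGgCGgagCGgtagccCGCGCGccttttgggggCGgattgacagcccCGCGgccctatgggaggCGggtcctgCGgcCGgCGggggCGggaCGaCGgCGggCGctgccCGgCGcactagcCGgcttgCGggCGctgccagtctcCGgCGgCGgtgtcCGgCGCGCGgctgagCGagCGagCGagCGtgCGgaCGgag
Sgk1: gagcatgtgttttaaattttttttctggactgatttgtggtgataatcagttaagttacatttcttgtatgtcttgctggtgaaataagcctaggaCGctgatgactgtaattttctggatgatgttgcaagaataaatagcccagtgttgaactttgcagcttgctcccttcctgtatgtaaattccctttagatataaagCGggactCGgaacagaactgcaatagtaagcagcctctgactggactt
Errfi1: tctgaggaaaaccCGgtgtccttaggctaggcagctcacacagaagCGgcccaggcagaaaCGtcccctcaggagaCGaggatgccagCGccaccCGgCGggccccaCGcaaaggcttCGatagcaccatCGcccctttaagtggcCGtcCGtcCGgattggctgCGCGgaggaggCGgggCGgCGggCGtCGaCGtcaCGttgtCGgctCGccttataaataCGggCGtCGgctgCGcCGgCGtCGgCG

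Dexamethasone alone moved all 7 genes. Fkbp5, Tsc22d3, Klf9, Klf15 and Errfi1 were higher in Dex than in vehicle livers, and Nr3c1 and Sgk1 were lower. Of the 11 tested probe sets, 8 were higher and 2 lower at a Benjamini-Hochberg adjusted p under 0.05 in limma, where 17.2% of all 16253 tested probe sets were higher and 24.7% lower, and the median member difference was 1.04 beside −0.01 over all tested probe sets. GW3965 alone left 6 of the 11 higher and 4 lower than in vehicle livers, where 5.93% of all tested probe sets were higher and 14.5% lower. With both compounds, 6 were higher and 1 lower than in vehicle livers, where 15.6% of all tested probe sets were higher and 21.2% lower. Several probe sets read the same gene, so these counts do not stand for independent genes, and the comparisons with vehicle share the same 2 vehicle arrays. Leaving out single arrays or changing the normalization altered some of the smaller calls, which are named with each gene.

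**Figure D1:**
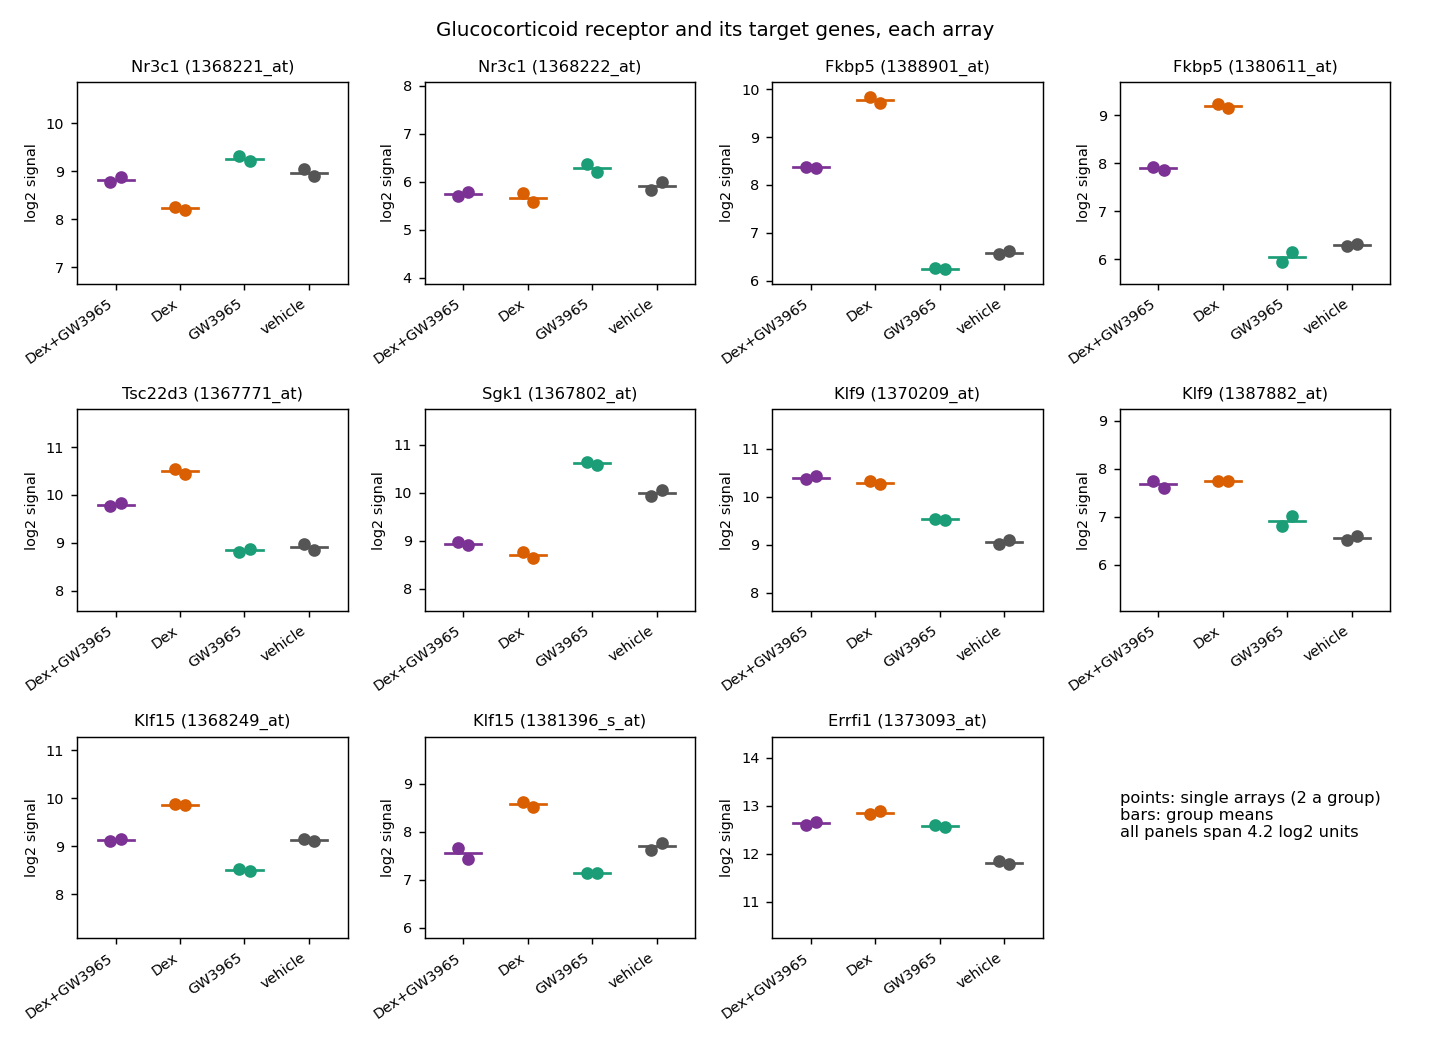
Log2 signal of the 11 tested probe sets on each of the 8 arrays, with points for single arrays and horizontal bars for group means, and an axis of equal span in every panel. Dex arrays sit highest for both Fkbp5 probe sets, Tsc22d3, both Klf15 probe sets and Errfi1, and lowest for Sgk1 and Nr3c1 (1368221_at).

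The receptor transcript itself was lower after dexamethasone and higher after GW3965. On Nr3c1 probe set 1368221_at the log2 signals were 8.78 and 8.87 in Dex+GW3965 livers, 8.25 and 8.20 in Dex livers, 9.31 and 9.21 in GW3965 livers, and 9.04 and 8.90 in vehicle livers. No 2 groups overlapped, with Dex lowest and GW3965 highest. Dex was 1.68-fold lower than vehicle (log2 difference −0.75 ± 0.06, SE, adjusted p = 1.86e-08 from limma), and GW3965 was 1.22-fold higher (0.29 ± 0.06, adjusted p = 0.00277). With both compounds the level was 1.52-fold higher than with dexamethasone alone (0.60 ± 0.06, adjusted p = 1.09e-06) and did not pass the test against vehicle (−0.15 ± 0.06, adjusted p = 0.0769). The call for GW3965 was lost without GW3965 array a (0.24, adjusted p = 0.0578, the highest over 15 alternatives, the lowest being 0.000782), and without vehicle array b the Dex+GW3965 livers passed as lower than vehicle livers (−0.22, adjusted p = 0.0234, the lowest of alternatives that reached 0.451).

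A second, dimmer probe set of Nr3c1, 1368222_at, passed as higher with GW3965 alone but did not pass with dexamethasone alone. It read 5.71 and 5.80 in Dex+GW3965 livers, 5.77 and 5.57 in Dex livers, 6.38 and 6.21 in GW3965 livers, and 5.84 and 6.01 in vehicle livers, close to the mean array median of 5.49. GW3965 arrays were highest, and the Dex+GW3965 and Dex arrays overlapped. The difference of Dex from vehicle was −0.25 ± 0.12 and missed the threshold (adjusted p = 0.0937 from limma), with a 95% confidence interval of −0.49 to −0.01 that does not reach the −0.75 of 1368221_at. GW3965 livers passed as higher than vehicle livers (0.37 ± 0.12, adjusted p = 0.0287), a call that was lost without vehicle array a (0.29), GW3965 array a (0.29) or GW3965 array b (0.46), with adjusted p between 0.0261 and 0.217 over 15 alternatives. The files do not say which Nr3c1 transcripts each probe set reads.

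Fkbp5, which encodes the Hsp90 co-chaperone that holds the receptor back, had the largest response of the 7 genes. Probe set 1388901_at read 8.38 and 8.36 in Dex+GW3965 livers, 9.83 and 9.71 in Dex livers, 6.27 and 6.25 in GW3965 livers, and 6.56 and 6.62 in vehicle livers. All 4 groups were apart, in the order Dex, Dex+GW3965, vehicle and GW3965. Dex was 9.07-fold higher than vehicle (3.18 ± 0.07, adjusted p = 2.01e-16 from limma), the 21st largest rise of the 7845 probe sets with a positive difference. Dex+GW3965 livers were 3.43-fold higher than vehicle livers (1.78 ± 0.07, adjusted p = 7.94e-13) and 2.64-fold lower than Dex livers (−1.40 ± 0.07, adjusted p = 7.35e-11). GW3965 alone lowered it 1.26-fold (−0.34 ± 0.07, adjusted p = 0.00205).

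The other Fkbp5 probe set, 1380611_at, gave the same order of groups. It read 7.93 and 7.86 in Dex+GW3965 livers, 9.24 and 9.15 in Dex livers, 5.93 and 6.15 in GW3965 livers, and 6.28 and 6.32 in vehicle livers. Dex exceeded vehicle by 2.89 ± 0.08 and Dex+GW3965 differed from Dex by −1.30 ± 0.08, with adjusted p = 9.45e-15 and adjusted p = 2.82e-09 from limma. Its fall with GW3965 alone was small (−0.26 ± 0.08, adjusted p = 0.0346) and was lost in 8 of 15 alternatives, among them the fits without vehicle array a (−0.28), vehicle array b (−0.24), Dex array a or b (−0.26 each) or GW3965 array a (−0.15), with adjusted p between 0.0174 and 0.31.

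Tsc22d3 followed Fkbp5 in its order of the dexamethasone groups, with smaller differences. Its probe set 1367771_at read 9.76 and 9.84 in Dex+GW3965 livers, 10.54 and 10.44 in Dex livers, 8.82 and 8.87 in GW3965 livers, and 8.98 and 8.85 in vehicle livers. Dex arrays were highest, Dex+GW3965 arrays lay between them and the rest, and the GW3965 and vehicle arrays overlapped. Dex was 2.98-fold higher than vehicle (1.57 ± 0.06, adjusted p = 1.52e-13 from limma), Dex+GW3965 was 1.85-fold higher than vehicle (0.88 ± 0.06, adjusted p = 6.09e-10), and Dex+GW3965 was 1.61-fold lower than Dex (−0.69 ± 0.06, adjusted p = 5.46e-08). GW3965 alone differed from vehicle by −0.07 ± 0.06 (95% confidence interval −0.19 to 0.05, adjusted p = 0.445).

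Sgk1, a kinase of the AGC family that glucocorticoids raise in many cell types, was lower after dexamethasone in these livers. Probe set 1367802_at read 8.97 and 8.91 in Dex+GW3965 livers, 8.76 and 8.63 in Dex livers, 10.65 and 10.59 in GW3965 livers, and 9.94 and 10.06 in vehicle livers. The groups did not overlap, and both groups given dexamethasone lay under both groups that were not. Dex was 2.47-fold lower than vehicle (−1.30 ± 0.05, adjusted p = 1.8e-12 from limma), and Dex+GW3965 was 2.08-fold lower than vehicle (−1.06 ± 0.05, adjusted p = 4.43e-11). GW3965 alone was 1.53-fold higher (0.62 ± 0.05, adjusted p = 2.57e-07). Dex+GW3965 exceeded Dex by 0.24 ± 0.05 (adjusted p = 0.00335), a call that was lost without Dex array b (0.18, adjusted p = 0.074) and missed the threshold without the intensity trend in the variance (adjusted p = 0.0502), over 15 alternatives with adjusted p between 0.00177 and 0.074.

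Klf9 rose with each compound, and its difference between Dex+GW3965 and Dex livers did not pass the test. Probe set 1370209_at read 10.37 and 10.43 in Dex+GW3965 livers, 10.33 and 10.26 in Dex livers, 9.54 and 9.52 in GW3965 livers, and 9.01 and 9.10 in vehicle livers. Vehicle arrays were lowest and GW3965 arrays next, and the Dex and Dex+GW3965 arrays lay close together at the top. Dex was 2.36-fold higher than vehicle (1.24 ± 0.05, adjusted p = 5.08e-13 from limma), GW3965 1.39-fold higher (0.48 ± 0.05, adjusted p = 1.02e-06) and Dex+GW3965 2.55-fold higher (1.35 ± 0.05, adjusted p = 2.29e-13). Dex+GW3965 differed from Dex by 0.11 ± 0.05, with a 95% confidence interval of 0.01 to 0.21 and adjusted p = 0.125.

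The second tested Klf9 probe set, 1387882_at, read 7.75 and 7.60 in Dex+GW3965 livers, 7.75 and 7.74 in Dex livers, 6.81 and 7.01 in GW3965 livers, and 6.52 and 6.60 in vehicle livers. Its rises over vehicle were 1.19 ± 0.09 with dexamethasone, 0.36 ± 0.09 with GW3965 and 1.12 ± 0.09 with both (adjusted p = 3.66e-09, 0.00725 and 1.08e-08 from limma). The Dex+GW3965 and Dex arrays overlapped, and their difference of −0.07 ± 0.09 had a 95% confidence interval of −0.25 to 0.11. The call for GW3965 was lost without GW3965 array b (0.25, adjusted p = 0.136), where 15 alternatives ran between 0.0055 and 0.136. Another Klf9 probe set, 1390076_at, lay between 3.93 and 4.08 on all 8 arrays, below every array's median, and was not tested.

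Klf15, which acts on amino acid breakdown and gluconeogenesis in liver, moved in opposite directions with the 2 compounds. Probe set 1368249_at read 9.11 and 9.15 in Dex+GW3965 livers, 9.88 and 9.86 in Dex livers, 8.52 and 8.49 in GW3965 livers, and 9.15 and 9.12 in vehicle livers. Dex arrays were highest, GW3965 arrays lowest, and the Dex+GW3965 and vehicle arrays overlapped. Dex was 1.67-fold higher than vehicle (0.74 ± 0.05, adjusted p = 8.21e-10 from limma), GW3965 1.54-fold lower (−0.63 ± 0.05, adjusted p = 4.41e-08), and Dex+GW3965 1.68-fold lower than Dex (−0.75 ± 0.05, adjusted p = 3.42e-09). Dex+GW3965 differed from vehicle by −0.01 ± 0.05, with a 95% confidence interval of −0.11 to 0.10.

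Probe set 1381396_s_at of Klf15 read 7.66 and 7.44 in Dex+GW3965 livers, 8.63 and 8.51 in Dex livers, 7.14 and 7.14 in GW3965 livers, and 7.63 and 7.77 in vehicle livers. The order of the groups was that of 1368249_at, again with Dex+GW3965 and vehicle arrays overlapping. Its differences were 0.87 ± 0.08 for Dex and −0.56 ± 0.08 for GW3965 against vehicle, and −1.02 ± 0.08 for Dex+GW3965 against Dex (adjusted p = 1.09e-07, 8.76e-05 and 5.62e-08 from limma). Against vehicle, Dex+GW3965 livers were at −0.15 ± 0.08 (adjusted p = 0.177), which passed the threshold without Dex+GW3965 array a (−0.26, adjusted p = 0.0382), the lowest over 15 alternatives that reached 0.822. The third Klf15 probe set, 1381395_at, lay between 3.42 and 3.82, below every array's median, and was not tested.

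Errfi1 encodes a feedback inhibitor of the EGF receptor, and each compound alone raised it. Probe set 1373093_at read 12.61 and 12.67 in Dex+GW3965 livers, 12.82 and 12.89 in Dex livers, 12.59 and 12.56 in GW3965 livers, and 11.84 and 11.79 in vehicle livers. Vehicle arrays were lowest, and the 3 treated groups lay close together without overlapping. Dex was 2.06-fold higher than vehicle (1.04 ± 0.04, adjusted p = 1.46e-13 from limma), GW3965 1.69-fold higher (0.76 ± 0.04, adjusted p = 9.16e-11) and Dex+GW3965 1.77-fold higher (0.82 ± 0.04, adjusted p = 5.19e-12). Dex+GW3965 livers were 1.16-fold lower than Dex livers (−0.22 ± 0.04, adjusted p = 0.000266) and differed from GW3965 livers by 0.06 ± 0.04, with a 95% confidence interval of −0.01 to 0.14.

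**Figure D2:**
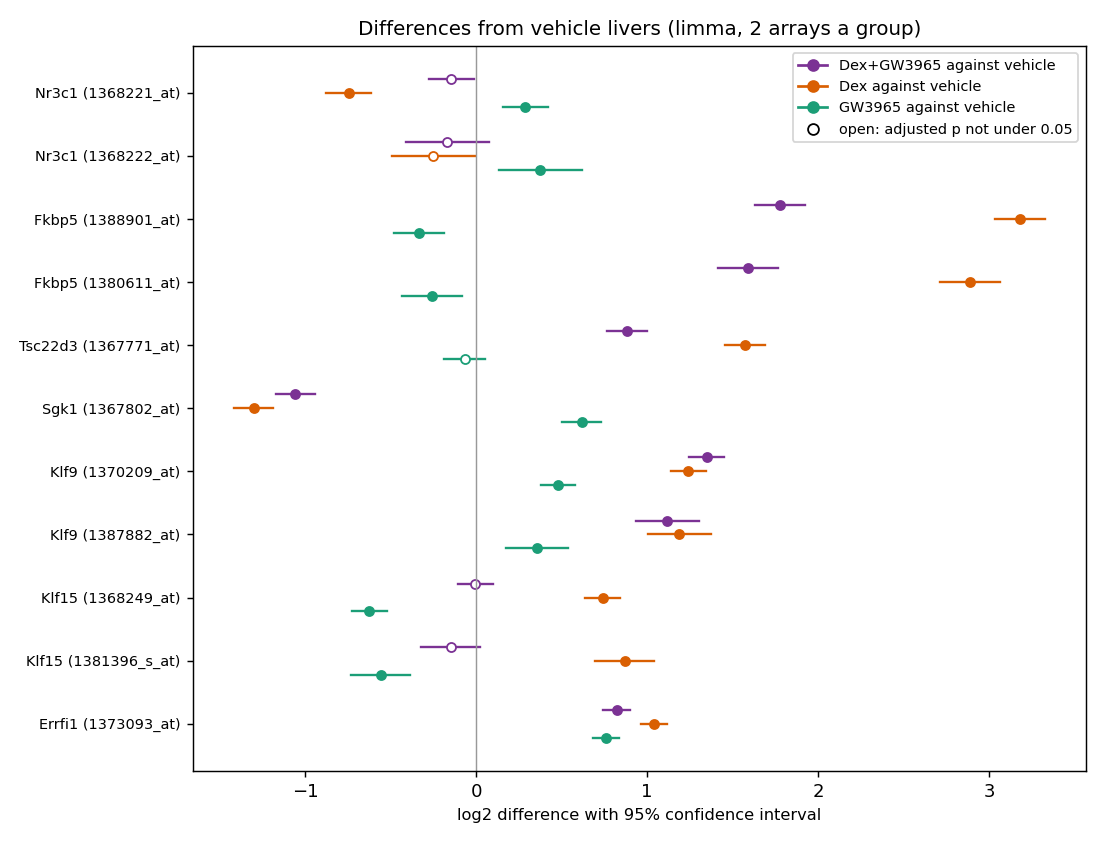
Log2 difference of each treated group from vehicle livers for the 11 tested probe sets, with 95% confidence intervals from limma, filled points at an adjusted p under 0.05 and open points otherwise. Fkbp5 (1388901_at) reached 1.78 with both compounds and 3.18 with dexamethasone alone, and Klf9 (1370209_at) reached 1.35 with both and 1.24 with dexamethasone alone.

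In livers given dexamethasone, GW3965 lowered the transcripts of Fkbp5, Tsc22d3, Klf15 and Errfi1 and raised those of Nr3c1 and Sgk1. Of the 11 probe sets, 2 were higher and 6 lower in Dex+GW3965 than in Dex livers, where 13.4% of all tested probe sets were higher and 9.38% lower. Both Klf9 probe sets and the dimmer Nr3c1 probe set did not pass. Set against GW3965 livers, dexamethasone still moved the members, with 7 probe sets higher and 3 lower in Dex+GW3965 than in GW3965 livers, where 19.0% of all tested probe sets were higher and 16.8% lower, and Errfi1 did not pass.

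Whether GW3965 changed the response to dexamethasone was tested directly, as the dexamethasone effect with GW3965 (Dex+GW3965 minus GW3965) less the effect without it (Dex minus vehicle), called the interaction. Of the 11 probe sets, 8 had a lower and 1 a higher effect with GW3965 than without, where 6.93% of all tested probe sets were lower and 15.8% higher. Quantile normalization turned the calls over all probe sets into 1843 higher and 1587 lower, against 2571 higher and 1127 lower in the deposited values, and likewise those for GW3965 against vehicle into 1208 higher and 1505 lower, against 963 higher and 2362 lower in the deposited values.

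Fkbp5, Tsc22d3, Klf9 and Errfi1, which dexamethasone raised, rose less when GW3965 was present, and for Klf15 the call depended on the probe set. Fkbp5 (1388901_at) rose 4.33-fold with GW3965 and 9.07-fold without it, and the interaction was −1.07 ± 0.10 (adjusted p = 3.84e-07 from limma). The second Fkbp5 probe set gave 3.61-fold with and 7.41-fold without GW3965, with an interaction of −1.04 ± 0.12 (adjusted p = 5.01e-06). Tsc22d3 rose 1.94-fold with and 2.98-fold without (−0.62 ± 0.08, adjusted p = 1.68e-05). In log2 units the effect with GW3965 was 66.5% and 64.1% of the effect without it for the 2 Fkbp5 probe sets, 60.5% for Tsc22d3, 70.0% and 64.2% for the 2 Klf9 probe sets, and 83.8% and 47.3% for Klf15 on 1368249_at and 1381396_s_at. For Errfi1, dexamethasone raised it 1.04-fold with GW3965 and 2.06-fold without it, or 6.05% of the log2 effect, and its interaction was −0.98 ± 0.05 (adjusted p = 3.25e-10 from limma). The effects with GW3965 are measured from GW3965 livers. There Errfi1 (0.76) and Klf9 (0.48 and 0.36) already stood above vehicle livers, and Fkbp5 and Klf15 below them. With both compounds, Errfi1 was 0.22 below Dex livers, and Klf9 did not pass against Dex livers.

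For Klf9 and Klf15 the interactions were smaller. Klf9 had −0.37 ± 0.07 on 1370209_at (adjusted p = 0.000598 from limma) and −0.42 ± 0.12 on 1387882_at (adjusted p = 0.0185). The second call was lost without vehicle array a (−0.39), Dex array a (−0.42), Dex array b (−0.43), GW3965 array b (−0.32) or Dex+GW3965 array b (−0.35), with adjusted p between 0.0111 and 0.115 over 14 alternatives. For Klf15 the probe sets differed in their calls. Probe set 1381396_s_at had an interaction of −0.46 ± 0.12 (adjusted p = 0.00827), lost without Dex+GW3965 array b (−0.35, adjusted p = 0.0516, the highest over 14 alternatives, the lowest being 0.00246). Probe set 1368249_at had −0.12 ± 0.07, with a 95% confidence interval of −0.27 to 0.03 and adjusted p = 0.235, and passed after quantile normalization (−0.21, adjusted p = 0.0331, the lowest over 14 alternatives that reached 0.436).

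The 2 genes that dexamethasone lowered went opposite ways when Nr3c1 was read on 1368221_at. Sgk1 was lowered 3.19-fold with GW3965 and 2.47-fold without it, so its fall was 129% of that without GW3965 in log2 units (interaction −0.37 ± 0.08, adjusted p = 0.00202 from limma). The effects with GW3965 are again measured from GW3965 livers, which stood above vehicle livers for Sgk1 (0.62) and Nr3c1 (0.29 on 1368221_at). With both compounds, Sgk1 was 0.24 above Dex livers. Nr3c1 (1368221_at) was lowered 1.35-fold with GW3965 and 1.68-fold without it, or 58.1% in log2 units, and its interaction was 0.31 ± 0.09 (adjusted p = 0.0148). That call was lost after quantile normalization (0.22), without the intensity trend, and without vehicle array a (0.24), Dex array b (0.29), GW3965 array b (0.26) or Dex+GW3965 array b (0.27), with adjusted p between 0.00457 and 0.0934 over 14 alternatives. The dimmer Nr3c1 probe set was lowered 1.46-fold with GW3965 and 1.19-fold without it, which is the direction of Sgk1. Its interaction of −0.29 ± 0.16 did not pass, with a 95% confidence interval of −0.64 to 0.05 and adjusted p = 0.221 from limma.

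**Figure D3:**
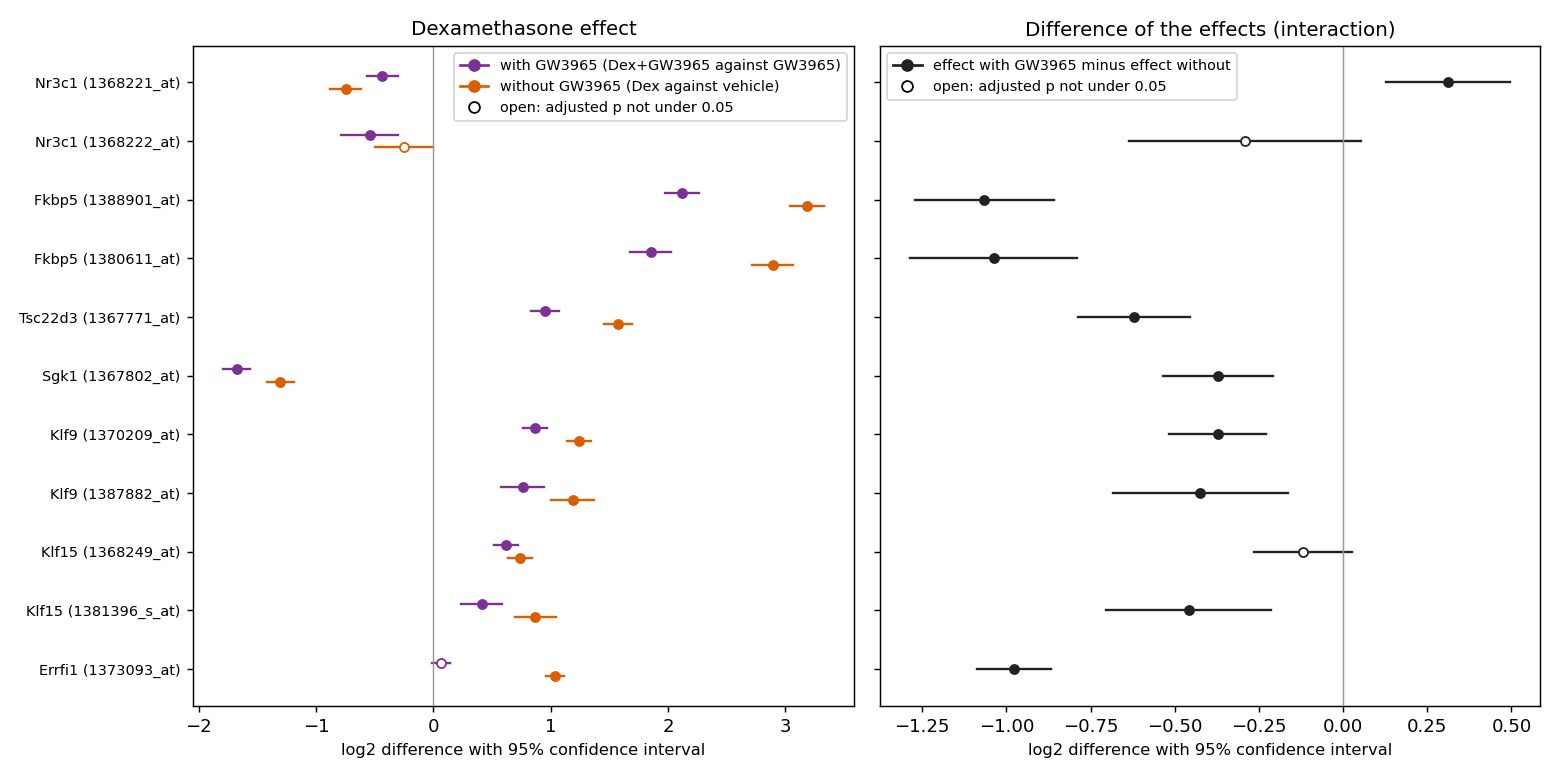
Left, the log2 effect of dexamethasone with GW3965 (purple) and without it (orange) for the 11 tested probe sets. Right, the effect with GW3965 minus the effect without it, with 95% confidence intervals from limma and open points where the adjusted p was not under 0.05: the intervals of Nr3c1 1368222_at and Klf15 1368249_at cross 0, and Fkbp5 and Errfi1 lie farthest below it.

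Other genes that glucocorticoids are known to raise, among 22 tested of 24 listed, were read on the brightest probe set of each gene. The list was chosen with earlier results of these data known, and the authors' own selection from these arrays holds Sds and Lpin1. Its counts, here and in the next paragraph, are therefore a description and not independent support. The same holds for the counts of the lists that follow, which were chosen in the same way. In Dex against vehicle livers, 18 were higher and 3 lower, where 18.0% of all 9829 tested genes were higher and 26.5% lower, and the list's median difference was 1.08, beside −0.02 over all tested genes. The largest were Sds, a serine-degrading enzyme, at 3.52 ± 0.07, Igfbp1, a binding protein for insulin-like growth factors, at 3.19 ± 0.07, Lpin1, a phosphatidate phosphatase, at 3.05 ± 0.05, and Usp2, a deubiquitinating enzyme, at 2.45 ± 0.08. The 3 that were lower, named after their values were seen, were Pdk4 (−1.43), which restrains pyruvate dehydrogenase, glutamine synthetase Glul (−0.58) and the insulin receptor substrate Irs2 (−0.53).

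With GW3965 present, 16 of the same 22 genes were lower and 4 higher in Dex+GW3965 than in Dex livers, where 10.4% of all tested genes were lower and 14.2% higher, and the median difference was −0.64, beside −0.00347 over all genes. Tat, the tyrosine aminotransferase, was at −1.92 ± 0.04, Sds at −1.74 ± 0.07, Lpin1 at −1.55 ± 0.05 and Igfbp1 at −1.51 ± 0.07. The 4 that were higher were Pdk4 (0.91), Mt2A (0.66), Irs2 (0.52) and Glul (0.26). With GW3965 alone the list split evenly against vehicle, with 8 higher and 8 lower, where 5.90% of all tested genes were higher and 15.9% lower, led by the lipase inhibitor Angptl4 (1.60 ± 0.05), the repressor Bcl6 (−1.49 ± 0.06), the mRNA-destabilizing protein Zfp36 (0.67) and Usp2 (−0.64 ± 0.08). Dex+GW3965 against Dex and Dex against vehicle share the Dex arrays, so their values are given side by side only.

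**Figure D4:**
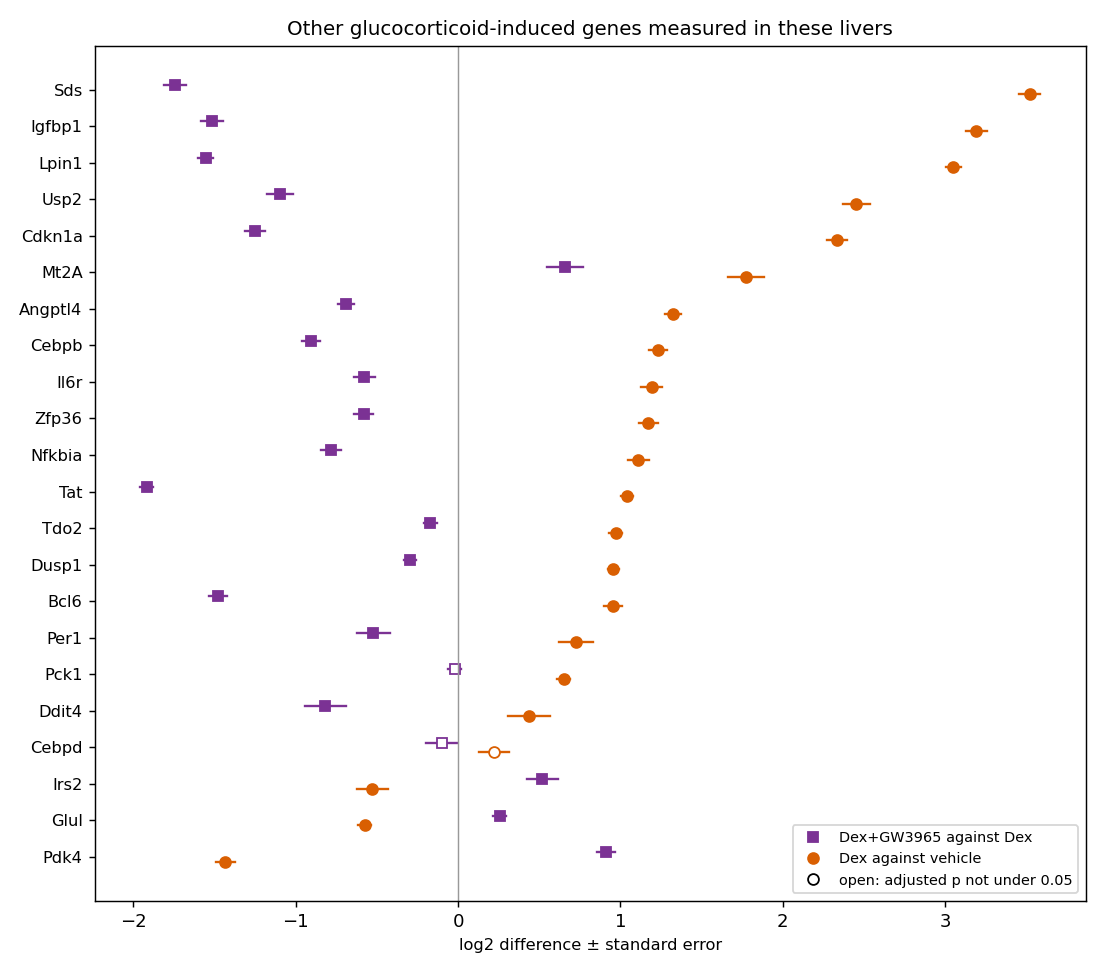
Log2 difference ± standard error of Dex+GW3965 against Dex livers (squares) and of Dex against vehicle livers (circles) for the 22 tested genes that glucocorticoids are known to raise, ordered by Dex against vehicle and with open symbols where the adjusted p was not under 0.05. Sds stands at −1.74 and 3.52, and Mt2A at 0.66 and 1.77.

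Of the listed chaperones and co-chaperones of the receptor, 12 of 14 were tested, and 1 was higher and 8 lower in Dex than in vehicle livers, where 18.0% of all tested genes were higher and 26.5% lower. Their median difference was −0.24, beside −0.02 over all tested genes. The largest were Fkbp4 (−0.48 ± 0.05), the co-chaperone that competes with Fkbp5 for Hsp90, the Hsp90 gene Hsp90ab1 (−0.46 ± 0.04), the Hsp70-related Hspa4 (−0.39 ± 0.08) and the cyclophilin Ppid (−0.30 ± 0.05), and the one that was higher, named after its value was seen, was Ptges3, the p23 co-chaperone (0.14 ± 0.04). With GW3965 alone, 3 were lower than in vehicle livers (Ppid −0.26, Fkbp4 −0.16, Hsp90ab1 −0.16), where 15.9% of all tested genes were lower. In Dex+GW3965 against Dex livers, 2 were higher and 2 lower, where 14.2% of all tested genes were higher and 10.4% lower, namely Dnaja1 (0.33), Hspa4 (0.29), Stip1 (−0.38) and Fkbp4 (−0.16).

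Among GR coregulators, 3 of 11 tested of 14 listed were higher and 3 lower in Dex than in vehicle livers, with a median of 0.08. With 18.0% of all tested genes higher, 26.5% lower and a median of −0.02, the share that was lower was near that of all genes. Ppargc1a, the coactivator of gluconeogenic genes, was higher by 0.92 ± 0.13 and the small heterodimer partner Nr0b2 by 0.47 ± 0.08, while the corepressor Nrip1 was lower (−0.99 ± 0.10), as was Ncor1 (−0.32). Ppargc1a averaged 6.55 in Dex livers but lay near the mean array median of 5.49 in vehicle (5.63), GW3965 (5.63) and Dex+GW3965 (5.77) livers. With GW3965 alone, 2 were lower than in vehicle livers, Nr0b2 (−0.43 ± 0.08) and Hdac3 (−0.18), where 15.9% of all tested genes were lower. In Dex+GW3965 against Dex livers 2 were higher and 2 lower, where 14.2% of all tested genes were higher and 10.4% lower, with Ppargc1a at −0.78 ± 0.13, Nr0b2 at −0.46 ± 0.08, Ncoa1 at 0.30 and Nrip1 at 0.30 ± 0.10.

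Relatives of the 7 genes did not share 1 direction. Of 21 tested, Fkbp4 again among them, 3 were higher and 9 lower in Dex than in vehicle livers, where 18.0% of all tested genes were higher and 26.5% lower. In GW3965 against vehicle livers 4 were higher and 4 lower, where 5.90% of all tested genes were higher and 15.9% lower. In Dex+GW3965 against Dex livers 4 were higher and 3 lower, where 14.2% of all tested genes were higher and 10.4% lower. Several of these shares were near those of all genes. With dexamethasone, Klf13 rose by 1.62 ± 0.09 and Klf10 by 1.23 ± 0.08, while the kinase Sgk2 (−1.41 ± 0.10) and Tsc22d1 (−1.27 ± 0.04) were lower. Klf10 also rose with GW3965 alone (0.91 ± 0.08), beside Klf4 (0.71) and Tsc22d2 (0.61), and Tsc22d1 was lower (−0.53 ± 0.04). Klf4 lay under the mean array median of 5.49 in the other 3 groups. It can therefore have passed the filter through the GW3965 arrays alone. Its rise, which is in the count of 4 higher, may come from the filter itself. In Dex+GW3965 against Dex livers, Klf12 was at 0.76, Klf10 at −0.69 ± 0.08, Sgk2 at 0.55 ± 0.10 and Tsc22d1 at 0.52 ± 0.04. The mineralocorticoid receptor Nr3c2, the closest relative of the GR, did not pass in Dex against vehicle livers (−0.18) or in the other 2 comparisons.

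Partners of Errfi1 and Sgk1 were read likewise. Of 10 ERBB receptors and ligands, 4 were tested. Egfr, the receptor that Errfi1 inhibits, was at −1.05 ± 0.05 in Dex and −0.41 ± 0.05 in GW3965 against vehicle livers, and at −1.33 ± 0.05 in Dex+GW3965 against Dex livers, all passing the test, and Erbb3 was higher in Dex than in vehicle livers (0.27 ± 0.10). Egf passed as lower with GW3965 alone (−0.20). Of 11 regulators and substrates of Sgk1, 3 were higher and 1 lower in Dex than in vehicle livers, where 18.0% of all tested genes were higher and 26.5% lower, with Foxo1 at 0.96 ± 0.08, Foxo3 at 0.46, Mtor at 0.43 and Ndrg2 at −0.24. With GW3965 alone, the ubiquitin ligase gene Nedd4l was at 0.37, Foxo1 at −0.37 ± 0.08 and Ndrg2 at −0.11, and in Dex+GW3965 against Dex livers Foxo1 was at −0.47 ± 0.08 and Mtor at −0.29.

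For each of the 7 genes, the 3 genes whose log2 signals over the 8 arrays were most like it, by Pearson's r on the brightest tested probe set, were drawn from 12881 probe sets. Since the 8 arrays hold 4 group means and each search took the highest of many values, r is a description only. Fkbp5 was most like Gstk1 (0.997), H6pd (0.997) and Pald1 (0.996), and Tsc22d3 most like Cdc42ep4 (0.997), Mdh1 (0.995) and Sds (0.995). Sgk1 was most like Crot (0.999), a carnitine acyltransferase of peroxisomes, Crisp2 (0.996) and Aox1 (0.996), whose differences from vehicle livers were negative with dexamethasone and positive with GW3965. Nr3c1 was most like B2m (0.997), Paip1 (0.992) and Cyp2c12 (0.988). Klf9 was most like Usp18 (0.996) and Ifit3 (0.994), both interferon-stimulated genes, and Cyp3a9 (0.993), and Klf15 most like Cyb5b (0.996), Nr5a2 (0.992) and Aqp11 (0.991). Errfi1 was most like St8sia1 (0.986), Abca1 (0.985), the LXR target that exports cholesterol, and Ica1 (0.976).

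Array medians lay between 5.48 and 5.52, and arrays a and b differed by 0.0698 to 0.089 log2 units in the median probe set, by group. In whole liver, fewer cells of a type and less RNA per cell cannot be told apart. Of the 8 hepatocyte markers 7 were tested and 0 lay below the mean array median on all arrays, and their summed linear signal was 125000 to 126000 in Dex+GW3965, 124000 to 127000 in Dex, 122000 in GW3965 and 125000 to 129000 in vehicle livers. Markers of other cells moved with the groups: the summed signal of 10 stellate cell markers was 3400 to 3410 in Dex+GW3965, 3540 to 3660 in Dex, 4500 to 4610 in GW3965 and 5770 to 5850 in vehicle livers. That of 9 tested Kupffer cell and macrophage markers of 12 was 5560 to 5680 in Dex+GW3965, 5080 to 5100 in Dex, 6560 to 6580 in GW3965 and 6480 to 6530 in vehicle livers. Sinusoidal endothelial markers, 6 tested of 8, summed to 2100 in Dex+GW3965, 2410 to 2420 in Dex, 2810 to 2840 in GW3965 and 2900 to 3000 in vehicle livers. The sums of these 3 lists were lower in both dexamethasone groups than in vehicle livers, and the stellate and endothelial sums also with GW3965 alone. By gene, in Dex against vehicle livers, 2 stellate markers were higher and 7 lower, where 18.0% of all tested genes were higher and 26.5% lower. For Kupffer cell and macrophage markers 1 was higher and 5 lower, and for endothelial markers 1 was higher and 3 lower. In GW3965 against vehicle livers, 0 stellate markers were higher and 8 lower, and 1 endothelial marker was higher and 2 lower. There 4 Kupffer cell and macrophage markers were higher and 1 lower, where 5.90% of all tested genes were higher and 15.9% lower. Neutrophil markers, 2 tested of 6 and 2 below the mean array median on all arrays, summed to 82.4 to 84.1 in Dex+GW3965, 57.1 to 62.0 in Dex, 49.5 to 57.5 in GW3965 and 208 to 212 in vehicle livers. The filter asks for 2 arrays above the median, so markers this dim can pass through the vehicle arrays alone. A fall from vehicle in this list may therefore come from the filter itself. Other lists moved otherwise: erythrocyte markers, 3 tested of 6, summed to 8730 to 8900 in Dex+GW3965, 12100 to 12400 in Dex, 17700 to 18700 in GW3965 and 11500 to 12300 in vehicle livers. Cholangiocyte markers, 3 tested of 6, summed to 484 to 498 in Dex+GW3965, 292 to 298 in Dex, 306 to 317 in GW3965 and 339 to 362 in vehicle livers, and the B cell markers, 1 tested of 6, to 60.6 to 70.2 in Dex+GW3965, 68.9 to 86.3 in Dex, 73.3 to 87.8 in GW3965 and 108 to 122 in vehicle livers. Of 13 T and NK cell markers, 10 lay below that level on all arrays. The part of these cells in the differences of the 7 genes was not tested.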

How the data were processed

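The authors deposited log2 signals, 1 per probe set and array, for 8 arrays. Per the methods, probes were re-mapped to UniGene with signals computed on perfect-match probes only after a MAS background subtraction, and the submitters' notes name MAS5. The normalization was not given in the sources used here. Array medians differed by at most 0.0357, so the values were not normalized again. Of 31099 probe sets, 57 controls were removed, and the 16253 above their array's median on at least 2 arrays were tested. Which genes pass this filter depends on brightness, and no detection calls were used. The annotation gives 20826 probe sets 1 symbol, 436 several and 9780 none.

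In R 4.3.3, limma 3.58.1 fitted the means of the 4 groups on all arrays together (eBayes with an intensity trend, 4 residual and 12.7 prior degrees of freedom), with Benjamini-Hochberg adjustment over all tested probe sets and a threshold of 0.05. The replicate letters did not pair arrays across groups (correlations of the a minus b differences between −0.232 and 0.0831). All probe sets of the 8 genes were to be reported, with up to 4 called genes of largest change from each list in a comparison. The members and lists were chosen with earlier results of these data known. Promoters are RefSeq windows of GRCr8. The methods' t-test, normalizations, filters, a replicate block and leaving out arrays were alternatives. In simulated data with groups of this size, 48 of 50 probe sets with a difference of 0.5 were recovered. Far fewer probe sets were changed there than were called in these data, and only in Dex arrays. The adjustment therefore acts differently, and this recovery is not the power of the tests reported here. The simulated spread was that between these arrays, which may be technical, so recovery between animals was not tested.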

Additional observations from a re-analysis of the deposited data

Results flagged for a closer look

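In 9 of the 11 tested probe sets the effect of dexamethasone differed between livers with and without GW3965 by the test of the difference itself (limma's interaction term, adjusted p under 0.05). The effect with GW3965 minus the effect without it was −1.07 for Fkbp5 on 1388901_at, −1.04 for Fkbp5 on 1380611_at, −0.98 for Errfi1, −0.62 for Tsc22d3, −0.46 for Klf15 on 1381396_s_at, −0.42 for Klf9 on 1387882_at, −0.37 for Klf9 on 1370209_at, −0.37 for Sgk1 and 0.31 for Nr3c1 on 1368221_at. In Sgk1 the negative sign stands for a larger fall, and in the genes that dexamethasone raised it stands for a smaller rise. The effects with GW3965 are measured from GW3965 livers, where Sgk1 stood 0.62 above vehicle livers.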

How the results depend on the processing

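Outside the methods' t-test, 943 of 979 member values kept their direction and their side of the threshold, 27 lost their call, 3 gained one and 6 changed sign. None of the 6 was called: Klf15 1368249_at in Dex+GW3965 against vehicle livers (0.00370 with arrays centred on their medians and −0.0268 to 0.0160 without single arrays), Tsc22d3 in GW3965 against vehicle livers (0.00459 after quantile normalization), and, without single arrays, Nr3c1 1368222_at (−0.0147 to 0.178) and Klf9 1387882_at (−0.141 to 0.00336) in Dex+GW3965 against Dex livers. Leaving out arrays gave 1804 to 3243 calls over all probe sets for GW3965 against vehicle (2127 without GW3965 array a, 1804 without b) and 2376 to 4020 for Dex+GW3965 against Dex (2401 without Dex array b, 2376 without Dex+GW3965 array b). With the replicate letters as a block, no member call changed, and all probe sets called for Dex against vehicle numbered 6618. For the methods' t-test, array a was set against a and b against b, an arbitrary match, since the letters did not pair arrays across groups. The methods' t-test, on 2 log ratios, called 2909 probe sets at its unadjusted threshold for Dex, 1896 for GW3965 and 2333 for Dex+GW3965 against vehicle, 2076 for Dex+GW3965 against Dex, 2764 against GW3965 and 2160 for the interaction, and after Benjamini-Hochberg adjustment 3 for GW3965 and 2 for Dex+GW3965 against vehicle, 1 for Dex+GW3965 against GW3965 and 0 for the rest. Unadjusted it called 3 members for GW3965 and 4 for Dex+GW3965 against vehicle, 5 for Dex+GW3965 against Dex, 6 against GW3965 and 4 for the interaction, and 0 after adjustment in every comparison, with 1 degree of freedom. With a gene's probe sets averaged, 2 coregulators in place of 1 passed in Dex+GW3965 against vehicle, and 1 ERBB gene in place of 2 in GW3965 against vehicle. With 2 arrays a group, precision is set by their number, and levels near the array median have no detection calls.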
